A study of Mus musculus with 5 samples.

Results

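Conventional type 2 dendritic cells (cDC2) were followed through kidney injury in mice, and 568 of 60043 kept cell barcodes were assigned to them. The cells were selected on the deposited molecule counts (UMIs, unique molecular identifiers) of named genes. A cDC2 carried at least 3 UMIs of Cd209a, Clec10a and Flt3 together and at least 10 UMIs of the MHC class II gene H2-Aa. It carried at most 1 UMI of Xcr1 plus Clec9a, at most 2 of Fscn1, at most 1 of the Cd3 genes and at most 3 of the C1q genes. These limits were meant to leave out type 1 dendritic cells (cDC1), mature dendritic cells, T lymphocytes and macrophages. They do not bar cells that carry the maturation gene Ccr7. Barcodes were kept when at most 30% of their UMIs were mitochondrial and at least 200 genes were seen, and a further 10 barcodes met the gene limits but not these quality limits.

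Kidneys came from male C57BL/6 Wild-Type mice aged 8 to 10 weeks. Aristolochic acid I (AAI), a plant nephrotoxin that injures the proximal tubule, was injected into the peritoneum at 3 mg/kg every 3 days over 2 weeks, and kidneys taken at week 2 formed the AKI group (acute kidney injury). Kidneys taken at week 4, after injections had stopped for 2 weeks, formed the CKD group (chronic kidney disease), and the control group at week 0 had received vehicle. There was 1 control library, 2 AKI libraries and 2 CKD libraries of whole kidney digested with collagenase IV and DNase I, with no sort for dendritic cells. The labels do not say whether a library held 1 mouse, so p-values measured only the spread between these libraries. With 1 control library there was no test against the control.

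Conventional dendritic cells sample antigen in tissue, carry it to lymph nodes and present it to T lymphocytes. The type 2 lineage depends on the transcription factor Irf4, presents mainly on MHC class II to CD4+ T lymphocytes, and senses sugars of microbes and damaged cells through C-type lectins such as Cd209a, Clec10a, Mgl2 and Clec4n. In the kidney these cells lie among macrophages that share many of their surface markers, and inflammation can give cDC2 an interferon-driven state that borrows genes of monocytes.

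The promoters of 3 interferon-stimulated genes are shown. These are among 6 list members that stayed at least 2-fold above control in the cDC2 of both AKI libraries. This held under 7 other choices of cells and 1 other scaling. Of the other members, Ifit3 is among the genes with a match counted below, and Ifi204 and Ifit2 are not. The promoter of Mgl2, which also kept its call, held 0 matches and is not shown. The 3 shown are thus examples that hold a match. Each runs from 250 bases before to 50 bases after the gene's start in RefSeq on build GRCm38.p6, 5′ to 3′ on the gene's strand, and capitals mark matches to GAAANNGAAA or its reverse complement TTTCNNTTTC, the core of elements bound by interferon-activated factors. Ifit1, at chr19:34640639-34640938 on the plus strand, held 2 matches, starting 104 and 85 bases before the gene's start. Isg15, at chr4:156200769-156201068 on the minus strand, held 3 overlapping matches starting between 78 and 66 bases before it. Rsad2, at chr12:26456403-26456702 on the minus strand, held 1 match starting 120 bases before it.
Ifit1: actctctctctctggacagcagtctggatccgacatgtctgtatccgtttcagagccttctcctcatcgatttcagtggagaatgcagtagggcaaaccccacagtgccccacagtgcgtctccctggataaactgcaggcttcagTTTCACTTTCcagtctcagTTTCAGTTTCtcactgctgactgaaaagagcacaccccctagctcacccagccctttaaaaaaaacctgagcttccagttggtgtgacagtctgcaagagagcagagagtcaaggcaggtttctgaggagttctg
Isg15: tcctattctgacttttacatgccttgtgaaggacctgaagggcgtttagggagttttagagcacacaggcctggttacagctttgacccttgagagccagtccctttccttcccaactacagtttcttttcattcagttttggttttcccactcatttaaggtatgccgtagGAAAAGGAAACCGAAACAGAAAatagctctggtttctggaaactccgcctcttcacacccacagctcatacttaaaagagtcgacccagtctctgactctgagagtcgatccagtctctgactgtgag
Rsad2: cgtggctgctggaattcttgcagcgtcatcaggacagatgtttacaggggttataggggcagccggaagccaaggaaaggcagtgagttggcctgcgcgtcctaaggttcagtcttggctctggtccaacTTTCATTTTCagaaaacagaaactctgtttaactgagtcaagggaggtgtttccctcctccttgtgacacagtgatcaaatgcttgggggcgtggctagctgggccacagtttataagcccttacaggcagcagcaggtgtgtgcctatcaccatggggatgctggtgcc
Of all 27025 promoters of this length in the table, 1079 (3.99%) held a match. Among the interferon-stimulated genes listed for this report, 18 of the 28 with a promoter in the table (64.3%) held one, against 1 of 12 chemokines and 0 of 26 immediate-early genes. The match did not separate list members by their level in cDC2. It was present in 8 of 12 members at least 2-fold above control in both AKI libraries and in 8 of 13 other members.

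The selected cells numbered 38 from the control library, 74 and 110 from AKI 1 and AKI 2, and 192 and 154 from CKD 1 and CKD 2. Whole libraries held between 90028670 and 121316769 UMIs, and the median cDC2 held 7792 UMIs in control, 12459.5 and 12443 in the AKI libraries, and 9253.5 and 12729 in the CKD libraries. Summed over cells, cDC2 gave 378977 UMIs in control and between 1011039 and 2137928 in the injured libraries, so a control level rested on the fewest molecules. Below, a level is given as UMIs per 10000 UMIs of the library's cDC2. Barcodes of 14 cDC2 also occurred among kept cells of another library, but no barcode was a cDC2 in more than 1 library.

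Most cells entered through Cd209a, a lectin that binds sugars and cell adhesion molecules. Cd209a alone reached 3 UMIs in 28 of 38 control cells, 65 of 74 and 82 of 110 AKI cells, and 147 of 192 and 118 of 154 CKD cells. Clec10a alone reached 3 UMIs in 10, 33, 58, 78 and 87 cells in the same order, and Flt3, the receptor that maintains dendritic cells, in 1, 6, 7, 3 and 14 cells. At the edge of the rule, the 67 cells with exactly 3 marker UMIs held Mgl2 at 4.83 per 10000 UMIs, and the 84 cells that met every other limit but carried 2 marker UMIs held it at 5.52. The 20 cells with 10 to 14 H2-Aa UMIs held Mgl2 at 0.849, and the 22 cells just outside with 5 to 9 held it at 0.662.

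The label was checked against genes that the rule did not use. Irf4, which directs the type 2 lineage, stood at 0.317 per 10000 UMIs in control, 0.613 and 0.395 in AKI, and 0.652 and 0.631 in CKD. Every library's cDC2 were above its cDC1, at 0 to 0.120, and its macrophages, at 0.0220 to 0.0862. Sirpa and Itgam, surface proteins that separate type 2 from type 1 dendritic cells, were also above the cDC1 level in all 5 libraries. Of the 20 genes listed for cDC2 identity, 7 were higher in cDC2 than in cDC1 of all 5 libraries and 6 were lower. The 6 lower genes were Zbtb46, Notch2, Id2, Ccr2, Dpp4 and Cd24a. Against macrophages, 7 of the 20 were higher in all 5 libraries (Zbtb46, Irf4, Relb, Ccr2, Cd7, Dpp4 and Cd24a) and 6 were lower (Sirpa, Klf4, Esam, Clec4a2, Spi1 and Id2). The list thus divided cDC2 from each neighbour only in part.

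Genes of the neighbouring classes were low in cDC2. Irf8, the factor that cDC1 need at high dose, stood at 1.39 to 2.14 per 10000 UMIs in cDC2 and at 11.2 to 16.0 in cDC1. Naaa, an enzyme gene enriched in cDC1, stood at 0.660 to 1.89 against 10.4 to 12.6. Of 9 listed cDC1 genes, 8 were lower in cDC2 than in cDC1 in all 5 libraries. All 15 macrophage markers were lower than in macrophages in all 5 libraries, with Apoe at 0.215 to 1.47 against 49.7 to 252 and Adgre1, which encodes the macrophage antigen F4/80, at 0.00935 to 0.0528 against 0.95 to 2.16. Of 14 monocyte markers, 9 were lower than in monocytes in all 5 libraries, and S100a4 and S100a6 were not among them.

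The control cells departed from the label most. Mgl2, which encodes the lectin CD301b found on a subset of cDC2, stood at 0.317 in control cDC2 but at 4.01 in control macrophages. Ly6c2, a monocyte gene, stood at 2.40 in control cDC2, 1.46 in AKI 1, and 0.369, 0.283 and 0.210 in AKI 2, CKD 1 and CKD 2, against 1.21 to 3.72 in monocytes. Siglech, which marks plasmacytoid dendritic cells, reached at least 2 UMIs in 6 of 38 control cells, 5 of 74 and 4 of 110 AKI cells, and 3 of 192 and 2 of 154 CKD cells. The 8 plasmacytoid markers summed to 35.0 per 10000 UMIs in control and 2.38 to 7.74 in the other libraries, with none of the 8 at 0 in any library. Transcripts of the loop and distal tubule (8 genes) summed to 27.9 in control and 0.613 to 5.67 elsewhere, and proximal tubule transcripts (16 genes) to 23.9 in CKD 1 and 2.38 to 7.48 elsewhere. A single AKI 1 cell raised the B lymphocyte list to 120 per 10000 UMIs there, against 0.921 to 3.01 in the other libraries. T and NK lymphocyte markers (13 genes) summed to 0.540 to 0.912 in all 5 libraries. At least 2 UMIs of Trac, Trbc1 and Trbc2 together were seen in 0 of 38 control cells, 1 of 74 and 5 of 110 AKI cells, and 5 of 192 and 17 of 154 CKD cells. The part of these transcripts in the comparisons with control was not tested, and folds are therefore given with a count of how many alternative choices of cells kept them.

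**Figure D1:**
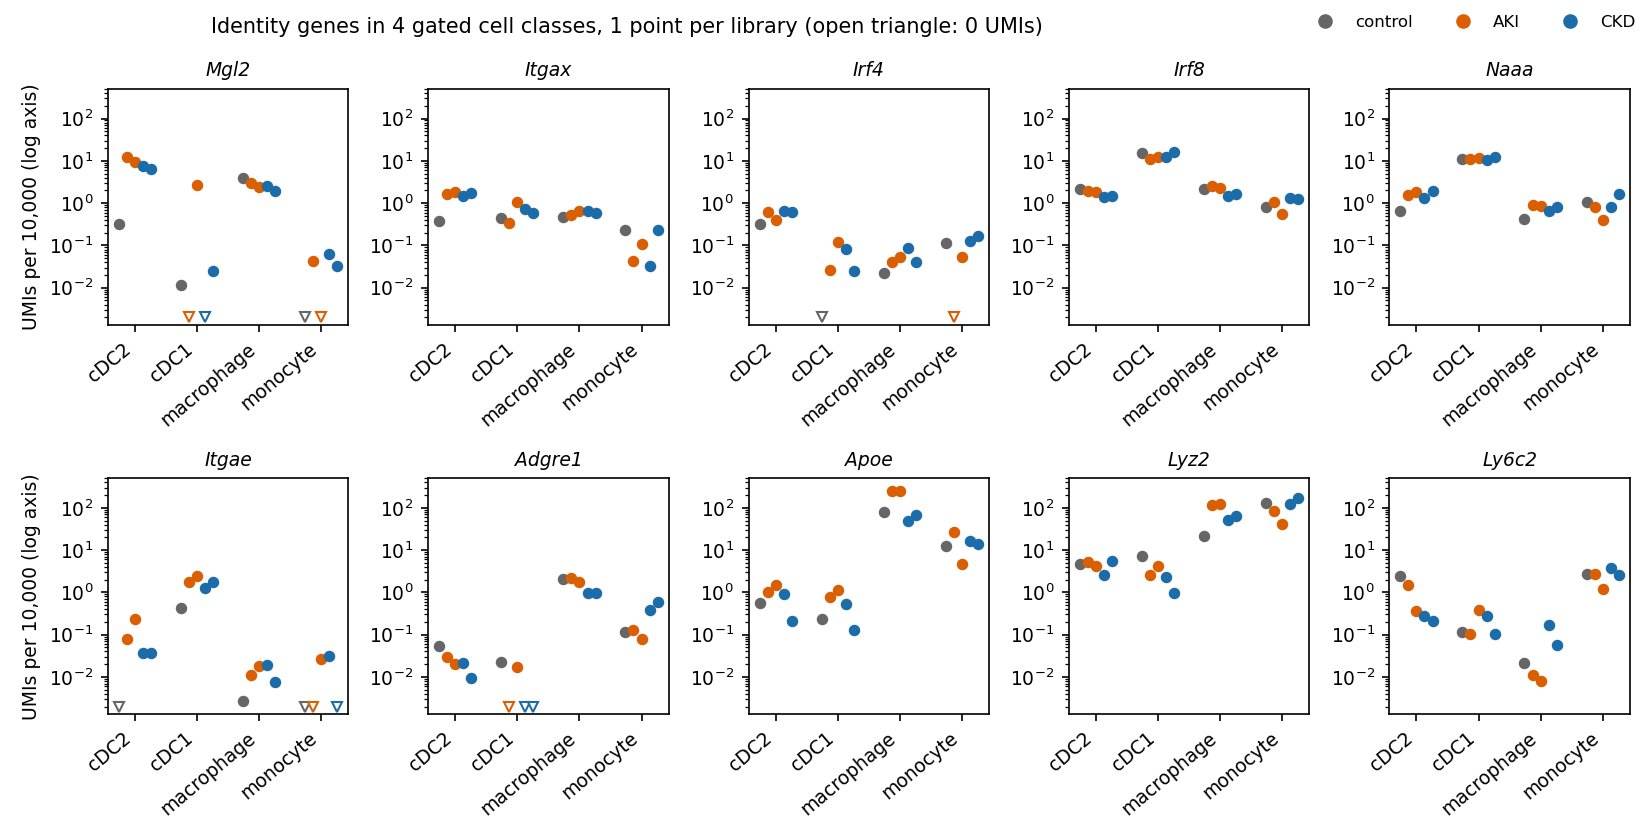
UMIs per 10000 UMIs (log axis) of 10 identity genes in cDC2, cDC1, macrophages and monocytes, with 1 point per library and open triangles for 0 UMIs. Irf8 and Naaa are high in cDC1, Adgre1 and Apoe in macrophages, and Mgl2 in control cDC2 (0.317) lies below every injured cDC2 point (6.47 to 12.2).

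The next comparison asked whether cDC2 made up more of the kidney's cells after injury. They were 0.414% of kept control cells (95% Clopper-Pearson interval 0.293 to 0.568). The AKI libraries held 0.661% (0.519 to 0.829) and 1.01% (0.834 to 1.22), and the CKD libraries 0.994% (0.859 to 1.14) and 1.62% (1.38 to 1.89). All 4 injured libraries were above control, and CKD 1 lay below AKI 2, so the AKI and CKD groups overlapped. The intervals cover counting error only. The mean share was 0.837% ± 0.250 (SD, n = 2) in AKI and 1.31% ± 0.443 (SD, n = 2) in CKD, a difference of 0.470 percentage points with a pooled SD of 0.359. With 2 libraries against 2, an exact two-sided permutation test cannot give a p below 0.33, so the difference could not pass a threshold. Without CKD 2 the difference was 0.157 percentage points, and after thinning every cell to 2000 UMIs it was 0.103.

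Depth and the other cells in a library both touch these shares. After thinning, which left out shallower cells, cDC2 were 0.115% of control cells, 0.317% and 0.524% of AKI cells, and 0.393% and 0.654% of CKD cells, so control stayed lowest. T lymphocytes numbered 1121 in control and 5034 to 5924 in the other libraries, which lowers the share of any other class there. Among cells with at most 1 UMI of the Cd3 genes the cDC2 share was 0.481% in control, 1.71% and 2.57% in AKI, and 1.87% and 5.35% in CKD.

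Within the dendritic cells the balance differed more between control and injury. Control held 64 cDC1 and 38 cDC2, whereas the injured libraries held 17 to 30 cDC1 and 74 to 192 cDC2. As a share of cDC2, cDC1 and mature dendritic cells together, cDC2 were 36.5% in control (27.3 to 46.6), 69.8% (60.1 to 78.3) and 67.5% (59.7 to 74.6) in AKI, and 68.6% (62.8 to 74.0) and 74.8% (68.3 to 80.5) in CKD. The control interval lay below those of the 4 injured libraries, and the injured libraries' intervals overlapped each other. With 1 control library this is a comparison of libraries and has no replicate check.

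**Figure D2:**
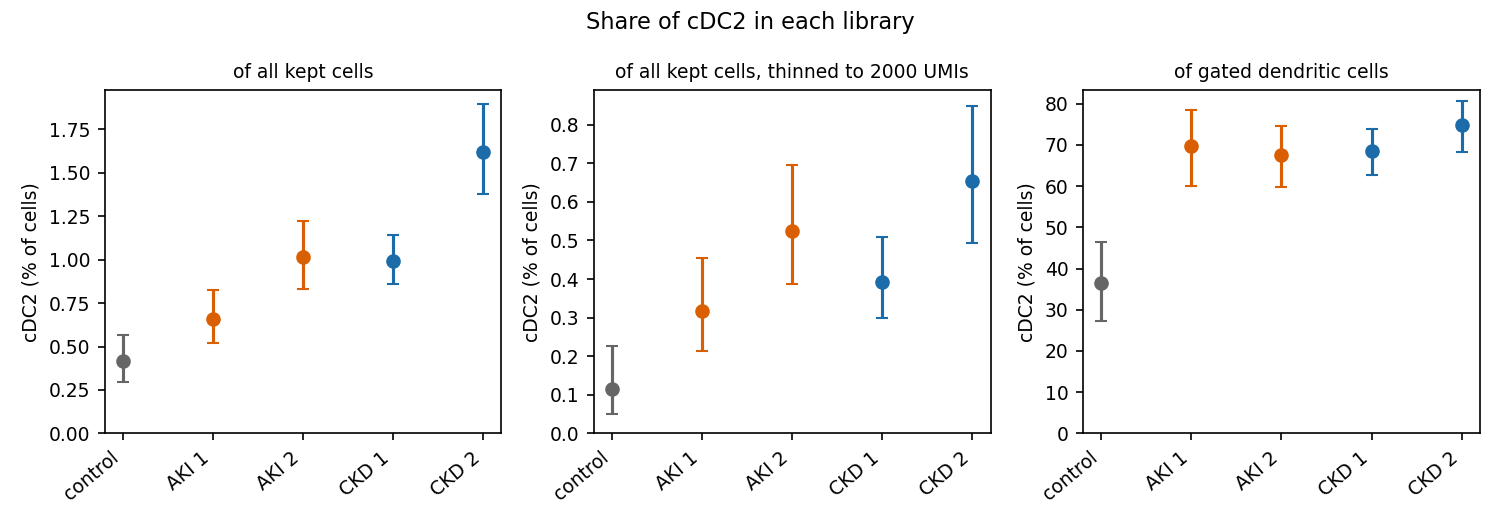
Share of cDC2 in each library (percent, points) with 95% Clopper-Pearson intervals (bars), as a share of kept cells, of kept cells thinned to 2000 UMIs, and of gated dendritic cells. Control is lowest in each panel (0.414%, 0.115% and 36.5%), and AKI and CKD overlap.

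Injured cDC2 were next set against control cDC2 by a rule of size, with no test. A gene was called when both libraries of a group differed at least 2-fold from control in the same direction, among genes with at least 20 UMIs summed over the libraries compared. Of 7497 genes, 491 (6.55%) were higher and 950 (12.7%) lower in both AKI libraries. Of 8744 genes, 702 (8.03%) were higher and 950 (10.9%) lower in both CKD libraries. The AKI and CKD comparisons share the control library, whose matrix also differs from the 4 injured ones in the software its header names, so group and processing cannot be told apart in these folds. The scale mattered: the median log2 ratio of all genes was -0.16 in AKI and -0.08 in CKD per 10000 UMIs but 0.21 in each after TMM scaling, a method that assumes most genes are unchanged. Under TMM scaling 898 genes were higher and 499 lower in AKI, and 1120 higher and 604 lower in CKD, so the share of calls that were higher moved from 34.1% to 64.3% and from 42.5% to 65.0%. Intervals on folds below are 95% intervals for counting error only.

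Among identity genes, Mgl2 and Itgax were far higher in injured cDC2. Mgl2 (ENSMUSG00000040950) stood at 0.317 per 10000 UMIs in control, 12.2 and 9.61 in AKI, and 7.39 and 6.47 in CKD, and control lay below all 4 others. This was 33.6-fold above control in AKI (19.2 to 65.2) and 21.8-fold in CKD (12.5 to 42.2), from 12 control UMIs. Macrophages of the same libraries went the other way in level, from 4.01 in control to 3.00 and 2.47 in AKI and 2.48 and 1.98 in CKD. Itgax (ENSMUSG00000030789), the gene of the dendritic cell integrin CD11c, stood at 0.369 in control, 1.68 and 1.88 in AKI, and 1.51 and 1.71 in CKD, which was 4.88-fold (2.88 to 8.99) and 4.37-fold (2.59 to 8.05) above control. Of 17 identity genes with enough UMIs, 4 were higher and 1, Cd24a, was lower in each group, with median log2 ratios of 0.64 in AKI and 0.51 in CKD. Among all genes 6.55% were higher and 12.7% lower in AKI, and 8.03% and 10.9% in CKD. The Mgl2 and Itgax calls were kept in all 8 alternatives (7 choices of cells and TMM scaling). Of the 126 control UMIs of Cd24a, 90 lay in 1 cell, and its AKI log2 ratio was 0.10 once cells with transcripts of other types were left out.

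Mgl2 was detected in more cells as well as at a higher level. At least 1 UMI was seen in 6 of 38 control cells (15.8%), 64.9% and 52.7% of AKI cells, and 59.4% and 53.2% of CKD cells. After thinning to 3000 UMIs the shares were 5.41%, 55.4%, 49.1%, 52.2% and 38.6% in the same order. Among T lymphocytes, which should lack the gene and held a median of 3589 to 5777 UMIs, 0.0892% to 1.77% had a UMI.

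Some receptors that sense sugars and antibody complexes were far above control, and 2 lectin genes were called below it. Of 12 pattern recognition genes in AKI 4 were higher and 2 lower, and of 14 in CKD 4 were higher and 1 lower. Over all genes 6.55% were higher and 12.7% lower in AKI, and 8.03% and 10.9% in CKD. The few lower calls are therefore not read as a result about these receptors. The lower genes were Cd209d and Clec4a1, both C-type lectins, in AKI, and Cd209d in CKD. Cd209d, from 60 control UMIs, was 3.01-fold lower in AKI (2.18 to 4.12) and 2.52-fold lower in CKD (1.87 to 3.35). Its call was kept in 5 of 8 alternatives in AKI and 4 of 8 in CKD, and the Clec4a1 call in 6 of 8. Both genes lost their calls under TMM scaling. Clec4n, the gene of the fungal sugar receptor Dectin-2, stood at 0.0528 per 10000 UMIs in control, 0.979 and 1.06 in AKI, and 0.919 and 0.893 in CKD. The control value was 2 UMIs, giving ratios of 19.5 (5.34 to 162) in AKI and 17.2 (4.71 to 142) in CKD. The Clec4n call was kept in all 8 alternatives in both groups. Macrophages showed a like pattern for Clec4n, at 0.113 in control and 1.07 to 1.52 in the other libraries. Fcgr3, an activating receptor for antibody, gave ratios of 9.66 (2.62 to 80.6) and 6.85 (1.86 to 57.1), again from 2 control UMIs. Myd88, the adaptor of Toll-like receptors, was 3.47-fold and 3.10-fold above control, and Mrc1, the mannose receptor, 4.32-fold in AKI (2.06 to 10.9), while its CKD ratio of 2.51 (1.20 to 6.33) did not reach 2-fold in CKD 1.

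Genes of maturation and T lymphocyte costimulation were higher in part. Of 18 such genes 6 were higher and 1 lower in AKI, and of 19 in CKD 6 were higher and 0 lower, with medians of 0.74 and 0.79. The shares over all genes were 6.55% higher and 12.7% lower in AKI, and 8.03% and 10.9% in CKD. Cd274, which encodes the inhibitory ligand PD-L1, stood at 0.132 in control, 1.41 and 1.07 in AKI, and 1.20 and 1.40 in CKD, a 9.17-fold (3.89 to 28.4) and 9.91-fold (4.22 to 30.6) difference from 5 control UMIs. Ccr7, the receptor that guides dendritic cells to lymph nodes, stood at 1.00 in control and 3.15 to 3.77 in the injured libraries, 3.58-fold higher in AKI (2.59 to 5.10) and 3.47-fold in CKD (2.51 to 4.92). The costimulatory genes Cd40 and Cd80 were 2.85-fold and 3.26-fold higher in AKI, and 3.07-fold and 3.85-fold higher in CKD, from 6 and 4 control UMIs. Cd83 and Cd86 did not reach 2-fold, with ratios of 1.46 and 1.37 in AKI and 1.48 and 1.74 in CKD. Cd274 kept its call in all 8 alternatives in both groups, whereas Ccr7 lost its call in both groups, and Cd40 and Cd80 theirs in AKI, among cells with a Flt3 UMI. The CKD call of Cd40 was lost without cells carrying transcripts of other types, and that of Cd80 was kept in all 8.

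By count, interferon-stimulated genes were the list with the most calls in AKI. Larger parts of some other lists were called, such as chemokines (10 of 17 higher) and loop and distal tubule genes (7 of 8 lower). Over all genes 6.55% were higher in AKI and 8.03% in CKD. Of 31 members with enough UMIs, 14 were at least 2-fold higher and 0 lower in both AKI libraries (median log2 1.17), and of 34 in CKD, 13 were higher and 0 lower (median 1.11), beside medians of -0.16 and -0.08 over all genes. Ifit1, an RNA-binding antiviral effector whose promoter is printed above, stood at 1.45 per 10000 UMIs in control, 6.58 and 5.36 in AKI, and 5.71 and 3.13 in CKD. Its fold was 4.03 (3.08 to 5.37) in AKI and 2.99 (2.28 to 3.98) in CKD. Isg15, a ubiquitin-like protein, stood at 3.11 in control, 12.2 and 10.2 in AKI, and 8.49 and 5.78 in CKD, 3.53-fold above control in AKI (2.94 to 4.29). In CKD it was 2.26-fold above control (1.88 to 2.74) and was not called, since CKD 2 lay under 2-fold. Rsad2, the antiviral enzyme viperin, stood at 1.37, 5.29, 4.29, 4.26 and 2.68 in the same order and was called in AKI only, at 3.42-fold (2.59 to 4.60). Control was lowest for all 3 genes and CKD 2 lowest among the injured libraries.

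Calls that held in all 8 alternatives were Ifi204, Ifit1, Ifit2, Ifit3, Isg15 and Rsad2 in AKI and Gbp3, Ifi47, Ifit3 and Irgm1 in CKD. For Ifit1, levels also differed from control in other cells of the libraries. Ifit1 stood at 0.862 in control macrophages and 1.25 to 3.12 in injured ones, and at 2.49 in control T lymphocytes and 4.49 to 6.69 in injured ones. Isg15 in control macrophages, at 5.40, lay within the range of injured ones, 4.30 to 6.75.

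Many chemokines and some cytokines were higher in injured cDC2. Of 11 cytokines with enough UMIs 5 were higher (Areg, Il1a, Il1b, Il1rn and Il6) and 1, Vegfa, was lower in AKI (median log2 0.64), and of 13 in CKD 4 were higher and 0 lower (median 0.65). Of 17 chemokines 10 were higher and 0 lower in AKI (median log2 1.46), and of 15 in CKD 6 were higher and 0 lower (median 1.05). Beside both lists stand shares over all genes of 6.55% higher and 12.7% lower in AKI, and 8.03% and 10.9% in CKD. Ccl5, a T lymphocyte attractant, stood at 5.94 per 10000 UMIs in control, 23.8 and 18.4 in AKI, and 12.8 and 9.10 in CKD, 3.46-fold higher in AKI (3.03 to 3.97). Its CKD fold was 1.82 (1.59 to 2.09) and was not called. T lymphocytes were more numerous in the injured libraries than in control. Among the T and NK lymphocyte markers Trac was called higher in cDC2 in AKI, and Trac and Trbc2 in CKD, where Cd8b1 and Gzma were called lower. The part of free RNA in the Ccl5 levels was not tested. Cxcl10, which attracts activated T lymphocytes, stood at 4.78 in control and 16.8 to 20.4 in the injured libraries, with folds of 3.82 (3.30 to 4.46) and 3.76 (3.25 to 4.39). In T lymphocytes Cxcl10 stood at 4.99 in control and 13.7 to 15.7 in the injured libraries.

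Ccl22, a ligand of CCR4 on regulatory and helper T lymphocytes, stood at 0.554 in control and 1.85 to 2.19 in the injured libraries, 3.59-fold (2.32 to 5.85) and 3.63-fold (2.36 to 5.89) higher. Ccl17, the other CCR4 ligand, stood at 3.40 in control and 7.78 to 12.8 in the injured libraries. Its folds were 2.53 (2.12 to 3.04) and 3.07 (2.58 to 3.68), but 125 of the 129 control UMIs lay in 1 cell and 4 of 38 control cells had any. In the injured libraries 43.6% to 53.9% of cDC2 had a Ccl17 UMI, against 0.424% to 2.81% of T lymphocytes. Il1b, the inflammasome cytokine, stood at 3.30 in control, 13.5 and 21.5 in AKI, and 16.1 and 13.1 in CKD, 5.56-fold (4.65 to 6.69) and 4.41-fold (3.69 to 5.30) higher. Control macrophages held Il1b at 8.28 and injured ones at 6.57 to 11.4. Calls kept in all 8 alternatives were Ccl5, Ccl6, Cxcl10, Il1b and Il1rn in AKI and Ccl22, Cxcl10, Areg and Il1b in CKD.

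MHC class II genes were higher by less, and the rule's own H2-Aa limit bears on them. H2-Ab1 was 1.59-fold above control in AKI (1.53 to 1.66) and 1.49-fold in CKD (1.43 to 1.55). Of 12 class II genes 2 were called higher in AKI and 1 in CKD, with medians of 0.67 and 0.65. H2-DMb2, a chain of the peptide-loading chaperone, stood at 1.00 in control and 3.30 to 4.63 in the injured libraries, 4.51-fold (3.27 to 6.40) and 3.71-fold (2.69 to 5.26) higher, and kept its call in all 8 alternatives. Among 18 class I genes 1 was called higher in each group, and among 51 nuclear genes of the respiratory chain 0 were called. The shares of all genes called higher were 6.55% in AKI and 8.03% in CKD, and those called lower 12.7% and 10.9%. The single class I call is therefore not read as a result.

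Immediate-early genes went the other way. Of 33 such genes, which also respond to tissue dissociation, 10 were lower and 1 higher in AKI (median log2 -0.72), and 9 lower and 1 higher in CKD (median -0.66). Over all genes 12.7% were lower and 6.55% higher in AKI, and 10.9% and 8.03% in CKD. Fos stood at 24.3 per 10000 UMIs in control, 5.69 and 6.55 in AKI, and 7.64 and 5.96 in CKD, which was 3.91-fold lower in AKI (3.60 to 4.25) and 3.60-fold lower in CKD (3.34 to 3.88). Jun stood at 25.8 in control and 5.79 to 9.76 in the injured libraries, 3.15-fold and 3.33-fold lower. Egr1 was 4.19-fold and 4.02-fold lower, and Klf2, a factor of quiescence, 2.35-fold and 2.69-fold lower. Fos and Jun kept their calls in all 8 alternatives, and the AKI call of Klf2 was lost in 3 of them. Fos and Jun were also highest in control in T lymphocytes, where Fos stood at 16.5 in control and 6.56 to 11 in the injured libraries, and in macrophages, at 51.8 against 24.0 to 41.4.

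**Figure D3:**
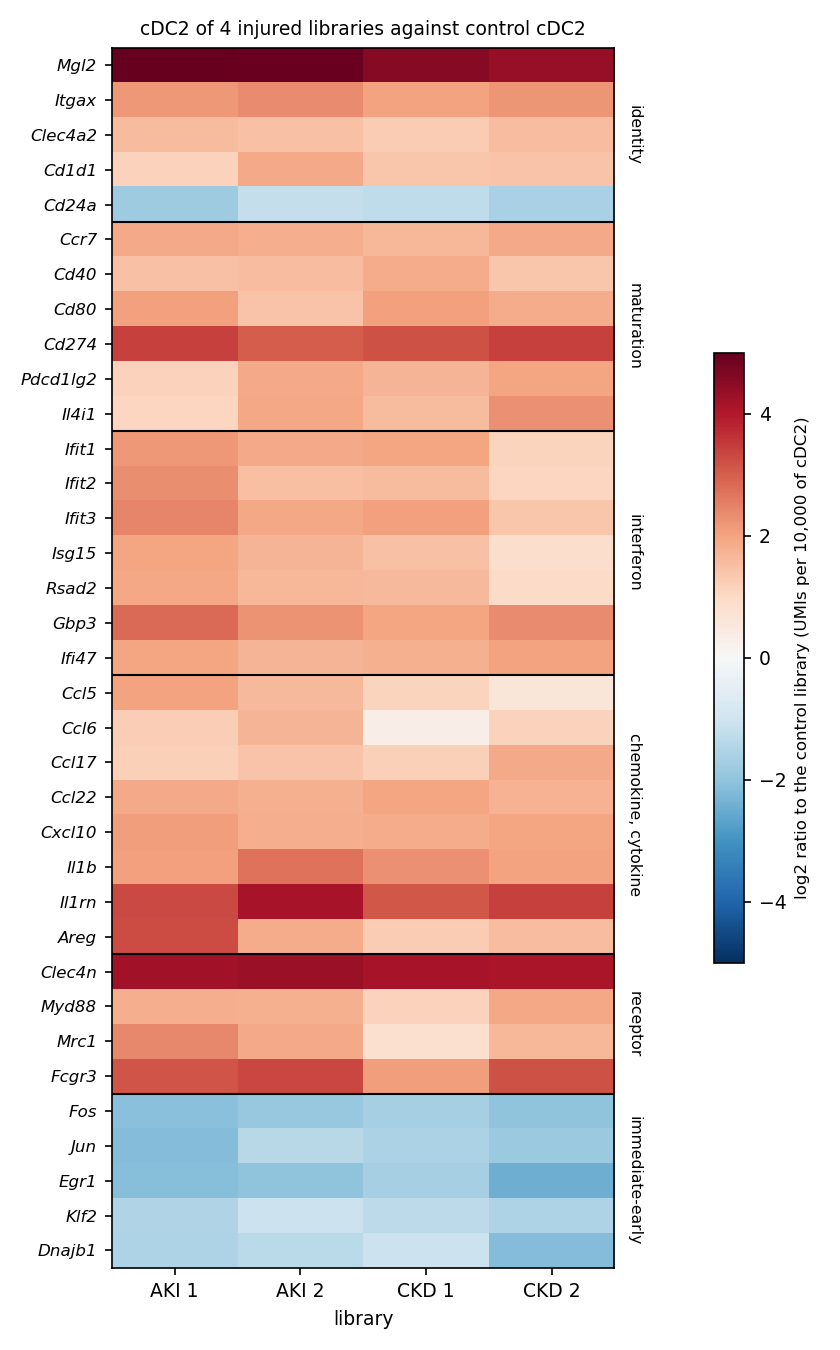
Log2 ratio of UMIs per 10000 UMIs in each injured library's cDC2 (columns) to control cDC2 for genes of 6 groups (rows), with control counts of 0 set to 1 and colours saturated at 5. Mgl2 and Clec4n are highest in all 4 libraries, Ifit1, Isg15 and Rsad2 are paler in CKD 2, and Fos, Jun, Egr1 and Klf2 are below control in all 4.

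Some genes of fibrosis-associated macrophages were examined because the study selected them on these same samples, so their direction here is not independent evidence. Of 6 with enough UMIs in AKI 1, Acp5, was higher and 0 lower, beside 6.55% of all genes higher. Of 8 in CKD 4 were higher (Acp5, Ctsk, Jdp2 and Mmp9) and 0 lower, beside 8.03% of all genes higher. In both groups the Acp5 call was kept in 7 of 8 alternatives and lost among cells with a Flt3 UMI. Ctsk and Mmp9, which encode matrix-degrading proteases, had a UMI in 0 of 38 control cDC2, 0 of 74 in AKI 1 and 0 of 110 in AKI 2, which allows shares of up to 7.89%, 4.05% and 2.73%. In CKD, Ctsk was seen in 23 of 192 and 21 of 154 cDC2 and Mmp9 in 13 and 17. T lymphocytes, which should lack both, showed Ctsk in 15.5% and 10.7% of CKD cells and Mmp9 in 11% and 9.88%. After thinning to 3000 UMIs both genes were in 2.17% and 3.27% of CKD cDC2. T lymphocytes then had Ctsk in 10.3% and 5.02% and Mmp9 in 7.33% and 4.79%. The cDC2 shares thus lay below those of T lymphocytes, and the part of free RNA in them was not tested. Cells with a Mki67 or Top2a UMI, which mark division, were 18.4% of control cDC2, 28.4% and 30.9% in AKI, and 39.6% and 32.5% in CKD. After thinning to 3000 UMIs they were 16.2%, 9.46%, 16.4%, 21.2% and 16.3% in the same order, so no order could be read.

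Within each injured library, cells with and without Mgl2 differed in the other genes they carried. Ccl17 was detected in 31 of 48 cells with Mgl2 in AKI 1 (64.6%) but in 2 of 26 without it (7.69%). The corresponding shares were 60.3% and 25.0% in AKI 2, 64.9% and 29.5% in CKD 1, and 70.7% and 34.7% in CKD 2. As a level, Ccl17 stood at 10.2, 12.3, 10.4 and 16.8 per 10000 UMIs in cells with Mgl2 and at 1.38, 4.93, 3.53 and 6.64 in cells without. Clec4n followed Mgl2 as well, at 1.06 to 1.44 with it and 0.292 to 0.640 without it. Clec10a as a level did not follow it throughout, being higher without Mgl2 in AKI 1, AKI 2 and CKD 1 and lower in CKD 2. Siglech was higher as a level without Mgl2 in AKI 2 (0.443 against 0.174) and CKD 1 (0.558 against 0.0173), lower in CKD 2 (0.119 against 0.154), and in AKI 1 all of its UMIs lay in 6 cells without Mgl2. The median depth was 10095.5 to 14519.5 UMIs with Mgl2 and 8104 to 11235.5 without, so the detected shares are not at equal depth, and no test was made over cells.

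CKD was then compared with AKI over the 4 injured libraries. No gene of 8016 tested passed an adjusted p of 0.05 in edgeR's quasi-likelihood test (0 genes, 0%). At an unadjusted p of 0.05 there were 380 genes (4.74%, 176 higher in CKD and 204 lower), and DESeq2 called 6 (0.0749%). On simulated counts with 200 changed genes the same edgeR fit recovered 24% of genes changed 2-fold and 76% of those changed 4-fold, so a 2-fold change would often be missed. The lowest adjusted p was 0.246, for Fxyd4, with all 77 of its CKD 2 UMIs in 1 cell.

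Several genes, chosen after their values were seen, separated the groups without passing the threshold. With 2 libraries against 2, even complete separation has an exact two-sided permutation p of 0.33. The share of all genes that separated likewise was not counted, so separation alone is not read as a difference. Tmem176a and Tmem176b, channel genes expressed by cDC2, stood at 5.21 and 5.66, and 4.85 and 6.08, per 10000 UMIs in AKI, and at 3.31 and 2.80, and 3.36 and 3.20, in CKD, with no overlap between groups. Their log2 differences were -0.93 (SE 0.14, adjusted p = 0.286 in edgeR) and -0.83 (SE 0.14, adjusted p = 0.286), and DESeq2 called both. Ccl5 stood at 23.8 and 18.4 in AKI and 12.8 and 9.10 in CKD (log2 -1.06, SE 0.21, edgeR adjusted p = 0.421) and was also called by DESeq2. The other DESeq2 calls were Car2, Mt2 and Hsd11b2. Mgl2 was -0.76 (SE 0.18, edgeR adjusted p = 0.584), with both CKD libraries below both AKI libraries. Stmn1 was 0.68 (SE 0.15) and Lgals1 0.62 (SE 0.14), each with an edgeR adjusted p of 0.541.

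By list, unadjusted counts at p under 0.05 leaned 1 way in a few groups. Of 26 lysosome and phagocytosis genes 9 were lower in CKD (median log2 -0.37), and of 16 chemokines 7 were lower (median -0.12). Of 28 cell cycle genes 5 were higher (median 0.38), and of 23 S100, annexin and cytoskeleton genes 5 were higher (median 0.13). Of all 8016 genes 176 were higher and 204 lower (4.74% together), and their median was 0.01. Interferon-stimulated genes had 2 higher and 5 lower of 33 (median -0.20), and the cDC2 identity genes 0 higher and 2 lower of 18 (median -0.14). None of these members passed the adjusted threshold, so no lean of a list is read as a difference between AKI and CKD.

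The change from AKI to CKD in cDC2 was tested against the change in macrophages of the same libraries. Macrophages had 377 of 12291 genes past the adjusted threshold in their own comparison, 206 of them higher in CKD. The difference between the 2 cell types' changes passed an adjusted p of 0.05 (edgeR, interaction term with library as a block) in 138 of 11274 genes (1.22%), with 72 where the cDC2 change lay above the macrophage change and 66 where it lay below. Of the 138, 124 also had a fitted change in each cell type alone, and in 102 of these the macrophage change was the larger in size. Genes used to select either cell type were not counted. Of the fixed tubule lists, 1 of 8 loop and distal genes (Aqp2) and 0 of 15 proximal genes were called with a higher change in cDC2. A further list was picked after the calls were seen, so how many of its members passed is no test. Of 12 collecting duct and other tubule genes, picked after the calls were seen, 10 were among the 72 (Aqp2, Aqp6, Atp6v1g3, Car2, Cldn4, Hsd11b2, Krt18, Pdzk1ip1, Scnn1b and Tmem229a), with differences of 2.10 to 5.07. In cDC2 the 12 genes summed to 41.1 per 10000 UMIs in control, 0.851 and 0.731 in AKI, and 5.87 and 3.57 in CKD, and 61.1% and 87.2% of their UMIs in CKD 1 and CKD 2 lay in 2 cells. Without cells carrying at least 2 UMIs of other types' markers, 3 of the 12 passed (of 159 genes with a higher change), and without cells over 1% in the listed tubule transcripts, 11 (of 116).

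Genes of S100 proteins, annexins and the cytoskeleton, listed together with the galectin Lgals3 and the thymosin Tmsb10, had a lower change in cDC2. Of 24 such genes 8 differed, all with a lower change in cDC2, and the list's median difference was -0.58 beside 0.00 over all genes. S100a4, a calcium-binding protein of motile and matrix-associated cells, stood in cDC2 at 19.8 and 20.6 per 10000 UMIs in AKI and 28.4 and 31.0 in CKD. In macrophages it stood at 1.79 and 2.47 in AKI and 19.1 and 23 in CKD, so cDC2 were already high in AKI and both cell types were near each other in CKD. The difference of changes was -2.79 (log2, SE 0.18, edgeR adjusted p = 5.19e-06), from 0.46 in cDC2 and 3.25 in macrophages. S100a6 followed, at 20.6 and 20.6 in AKI and 24.5 and 27.7 in CKD in cDC2, against 3.38 and 2.96, and 12.6 and 11.3, in macrophages (-1.60, SE 0.16). S100a10 (-1.72), Anxa1 (-1.34), Tmsb10 (-0.89) and Lgals3 (-0.89) differed in the same direction.

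The CCR4 ligands differed in the same direction, at far higher levels in cDC2. Ccl17 stood at 7.83 and 9.12 in AKI and 7.78 and 12.8 in CKD in cDC2, and at 0.0797 and 0.264 in AKI and 0.629 and 0.774 in CKD in macrophages (difference -1.91, SE 0.35, edgeR adjusted p = 0.0209). Ccl22 stood at 1.85 to 2.19 in cDC2 of all 4 libraries and at 0.171 and 0.124 in AKI and 0.500 and 0.315 in CKD in macrophages (-1.49, SE 0.21, edgeR adjusted p = 0.00637). Ccl22 also differed from T lymphocytes, by -1.45 (SE 0.30, edgeR adjusted p = 0.0324), from a log2 change of 1.39 there that did not pass and was close to the 1.42 of macrophages. Its level in T lymphocytes, which should lack it, was 0.0143 and 0.0255 in AKI and 0.0521 and 0.0517 in CKD, and the part of free RNA in either difference was not tested. Ccl3, an attractant of monocytes, went the other way, at 2.75 and 3.92 in AKI and 4.75 and 4.09 in CKD in cDC2 against 24.0 and 21.1, and 9.71 and 9.64, in macrophages (1.60, SE 0.19). Of 17 chemokines, 1 had a higher and 3 a lower change in cDC2 than in macrophages.

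Cell cycle genes had a lower change in cDC2. Of 28, 6 differed, all lower in cDC2, and the median difference was -0.89. Stmn1, a microtubule regulator of dividing cells, stood at 1.30 and 1.31 in AKI and 2.46 and 2.03 in CKD in cDC2, and at 1.01 and 1.49, and 4.76 and 5.01, in macrophages (-1.23, SE 0.21). Top2a differed by -0.98 (SE 0.22), a call lost when either AKI library or CKD 1 was left out.

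Activation genes differed in the other direction. Of 33 immediate-early genes 8 differed, all with a higher change in cDC2 (median 0.47). Egr1 stood at 1.29 and 1.39 in AKI and 1.81 and 1.05 in CKD in cDC2, and at 13.4 and 9.99, and 3.67 and 3.39, in macrophages (1.72, SE 0.22). Ier2 (1.08) and Jun (1.02) differed likewise. Cd83, a maturation marker that stabilises MHC class II, stood at 3.73 and 4.32 in AKI and 3.59 and 4.64 in CKD in cDC2, and at 5.45 and 5.23, and 2.49 and 2.76, in macrophages (1.02, SE 0.17). Cd86 (0.92) and Tlr2 (1.73) also had a higher change in cDC2, and Traf1, a signalling adaptor of the TNF receptor family, a lower change (-1.27).

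MHC class II followed the same pattern. H2-Ab1 stood at 111 and 109 in AKI and 96.0 and 108 in CKD in cDC2, and at 78.0 and 71.6, and 40.5 and 46.3, in macrophages (0.65, SE 0.14, edgeR adjusted p = 0.0360). H2-Eb1 (0.62) and Ciita (1.02), the master regulator of the class II genes, differed likewise, and of 13 class II genes these 3 were called. All 3 calls were lost without CKD 1, that of H2-Eb1 also without AKI 2 and that of Ciita also without AKI 1. The selection of cDC2 on H2-Aa, which has no counterpart in macrophages, bears on all 3. Monocyte genes were mixed. Ly6c2 differed by -5.22 (SE 0.50) and Fn1, a matrix protein, by 2.27 (SE 0.33), with Fn1 at 0.0890 to 0.145 in cDC2 and at 2.17 and 2.50 in AKI and 0.366 and 0.427 in CKD in macrophages.

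**Figure D4:**
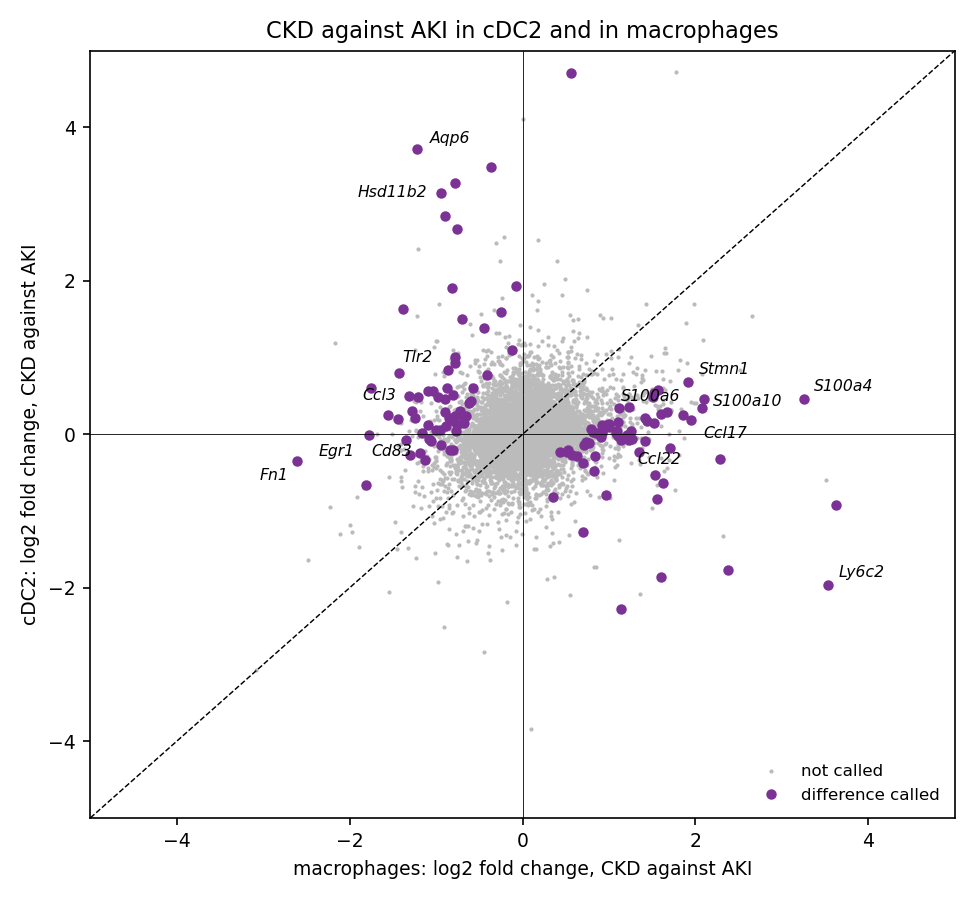
Log2 fold change from AKI to CKD in cDC2 (vertical axis) against that in macrophages (horizontal axis), 1 point per gene for 7967 genes, with 124 genes whose changes differed in purple and the diagonal of equal change dashed. S100a4 lies far to the right near 0 in cDC2, and Fn1 and Egr1 to the left, while 3 genes lie outside the axes.

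Against T lymphocytes of the same libraries, which lack most myeloid genes, 39 of 13994 genes differed in their change (0.279%), 24 with a higher and 15 with a lower change in cDC2. Of the fixed tubule lists, 1 of 8 loop and distal genes (Aqp2) and 0 of 15 proximal genes were among the 24. All 12 of the tubule genes picked after the calls were seen were among the 24, at 2.05 to 5.55, a count that is no test. They included Hsd11b2 (edgeR adjusted p = 4.49e-06), Aqp2 (3.44), Car2 (2.14), Aqp6 (4.71), Fxyd4 (3.19) and Krt7 (2.24). Without cells carrying other types' transcripts, 2 of the 12 passed, among 74 genes with a higher change. Ccl2, an attractant of monocytes, differed by 1.83 (SE 0.23, edgeR adjusted p = 0.000349) and Ccl3 by 1.60 (SE 0.23), with log2 values in T lymphocytes of -1.62 and -1.20 that did not pass the test there. In cDC2 their log2 changes were 0.16 and 0.31 and did not pass either. T lymphocytes held Ccl2 at 0.373 and 0.302 per 10000 UMIs in AKI and 0.133 and 0.0871 in CKD. They held Ccl3 at 1.30 and 1.49, and 0.517 and 0.683. The part of free RNA in these levels was not tested. Nr4a2, an immediate-early factor, differed by 1.25 (SE 0.25). Spi1 (-1.59) and Clec12a (-1.81) had a lower change in cDC2. Both are myeloid genes that T lymphocytes should lack, and Spi1 stood at 0.0314 to 0.176 per 10000 UMIs there.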

How the data were processed

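Single-cell RNA was measured by Chromium 3′ v2 droplet sequencing of 5 kidney libraries. Per the labels, the authors aligned reads with Cell Ranger 7.2.0 and STAR to GRCm39 and deposited matrices of UMI counts per gene and barcode, while the headers of the 4 AKI and CKD matrices name another Cell Ranger version and that of the control matrix names none, a split that falls between control and injured libraries. All 5 list the same 32285 genes. Of 72896 deposited barcodes, 60043 were kept, more than the study analyzed after its own quality control. No doublet caller was run, and free RNA was not subtracted. The members, gene lists and tests were chosen with earlier results of these data known.

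Counts were summed per library and cell type, since cells are not replicates. CKD and AKI were compared with edgeR 4.0.16 (limma 3.58.1, R 4.3.3; TMM, low-count filter, quasi-likelihood test, Benjamini-Hochberg adjustment over all genes tested). The cDC2 change was compared with that of macrophages (at least 10 C1q UMIs and at most 1 Cd3 UMI) and T lymphocytes (at least 3 Cd3 UMIs and at most 2 of H2-Aa) as an interaction with library as a block. DESeq2 1.42.0 was an alternative. Other choices of cells were a 15% mitochondrial limit, at least 20 H2-Aa UMIs, at least 1 Flt3 UMI, and leaving out cells with at least 2 UMIs of other types' markers, very deep cells, shared barcodes or cells with over 1% tubule UMIs. The control library was compared by a 2-fold rule on UMIs per 10000, with counts of 0 set to 1. Named genes were members of 28 fixed lists that passed, by size, and further genes named for a low p or a DESeq2 call were chosen after their values were seen. Intervals are 95% and cover counting error only. The rules were computed in Python 3.11.15 with numpy 2.4.6, scipy 1.17.1 and pandas 2.3.3. On simulated counts with 200 changed genes, the comparison with macrophages recovered 22% of 2-fold and 64% of 4-fold changes, and that with T lymphocytes 8% and 42%. Same-numbered AKI and CKD libraries did not deviate together (correlation -0.13 over 8023 genes).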

Additional observations from a re-analysis of the deposited data

Results flagged for a closer look

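The change from AKI to CKD differed between cDC2 and macrophages of the same libraries in 138 genes, and between cDC2 and T lymphocytes in 39 genes (edgeR interaction, adjusted p under 0.05). Each value below is the log2 change in cDC2 minus that in the other cell type, and each gene passed that test of the difference.

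Relative to macrophages the cDC2 change was lower for the S100 genes S100a4 (-2.79), S100a6 (-1.60) and S100a10 (-1.72), the annexin gene Anxa1 (-1.34), the galectin gene Lgals3 (-0.89) and the thymosin gene Tmsb10 (-0.89). It was lower for the chemokines Ccl17 (-1.91) and Ccl22 (-1.49), for the dividing-cell genes Stmn1 (-1.23) and Top2a (-0.98), for the adaptor Traf1 (-1.27) and for the monocyte gene Ly6c2 (-5.22). The cDC2 change was higher for Ccl3 (1.60), for the immediate-early genes Egr1 (1.72), Ier2 (1.08) and Jun (1.02), and for the class II genes H2-Ab1 (0.65), H2-Eb1 (0.62) and Ciita (1.02). It was also higher for Cd83 (1.02), Cd86 (0.92), Tlr2 (1.73) and Fn1 (2.27).

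Relative to T lymphocytes the cDC2 change was higher for Ccl2 (1.83), Ccl3 (1.60) and Nr4a2 (1.25) and lower for Spi1 (-1.59) and Clec12a (-1.81). The Ly6c2 difference rests in part on AKI 1, where 82 of 148 cDC2 UMIs lay in 1 cell. Fn1 had 9 to 23 cDC2 UMIs in each of the 4 libraries.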

How the results depend on the processing

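The cells without Cd3 transcripts as denominator moved the CKD minus AKI share to 1.47 percentage points, gated dendritic cells to 3.02, a required Flt3 UMI to 0.0604 and thinning to 0.103, and leaving out 1 library gave 0.157 to 0.783. The count of genes called between CKD and AKI was 3 without tubule-rich cells, 6 with DESeq2, 109 with no low-count filter, 1 with the replicate block and 2 to 138 with 1 library left out (97 without CKD 1, 138 without CKD 2), where a lone library is assumed to vary like the other group's. Same-numbered libraries share only a number, and crossing the numbers as pairs gave 3 calls. Differences from macrophages numbered 227 with at least 20 H2-Aa UMIs, 272 without cells carrying other types' transcripts, 227 without tubule-rich cells, 434 unfiltered and 83 (without CKD 1) to 409 (without CKD 2) with 1 library left out. Leaving out CKD 1 lost the calls of Lgals3, Tmsb10, Ccl17, Top2a, Jun, H2-Ab1, H2-Eb1, Ciita, Cd86, Nr4a2 and Spi1. H2-Eb1 and Cd86 were also lost without AKI 2, and Ciita without AKI 1. Differences from T lymphocytes numbered 100 at a 15% mitochondrial limit, 77 at 20 H2-Aa UMIs, 129 without other-type cells, 77 without very deep cells, 101 without tubule-rich cells, 19 with DESeq2, 156 unfiltered and 105 to 239 with 1 library left out.

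Against control, AKI genes called lower numbered 268 with a Flt3 UMI required, 437 without other-type cells and 561 without very deep cells, and CKD genes 296 and 525 under the first 2 of these. A 3-fold rule gave 208 higher and 384 lower in AKI and 262 and 352 in CKD, at least 50 UMIs gave 266 and 339, and 434 and 400, and TMM scaling 898 and 499, and 1120 and 604. With 1 injured library left out the counts were 402 to 559 higher and 828 to 930 lower in AKI, and 674 to 777 and 843 to 1061 in CKD. The AKI log2 ratio of Siglech turned to 0.0929 at 20 H2-Aa UMIs and that of Cd24a to 0.10 without other-type cells. Settings on tubule-rich cells, TMM scaling of folds, crossed numbers and left-out injured libraries were chosen after seeing the data. Among the named genes' values under these settings, 567 folds kept their direction and their call, 52 kept only their direction and the 2 named above reversed. The causes of these moves were not tested. The 38 control cells and the single control library limit every comparison with control, and counts do not say that the same genes were called.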

Other observations

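Ifnb1, which encodes interferon beta, had 11 UMIs in 7 of 38 control cells, 115 in 25 of 74 and 174 in 29 of 110 AKI cells, and 133 in 39 of 192 and 148 in 27 of 154 CKD cells. As a level this was 0.290 per 10000 UMIs in control, 1.14 and 1.15 in AKI, and 0.711 and 0.692 in CKD. Control was lowest, and both AKI libraries lay above both CKD libraries. Ifnb1 is on none of the fixed lists, and the share of all genes that separated AKI from CKD likewise was not counted. This order is therefore not read as a difference between AKI and CKD. Cells were not equally deep. After thinning to 3000 UMIs, 0 of 37 control cDC2 had a UMI, which allows a share of up to 8.11%, against 18.9% and 16.4% in AKI and 12.0% and 9.80% in CKD. T lymphocytes, read as background, had one in 0.406% to 2.37% after thinning, and macrophages in 18.7% to 39.5%, so the control share in cDC2 could not be told from background. Macrophages held Ifnb1 at 3.22 in control, 4.27 and 4.06 in AKI, and 2.28 and 1.65 in CKD. Spp1, the gene of osteopontin, varied between libraries more than between groups, at 5.01 in control, 6.65 and 24.4 in AKI, and 11.1 and 1.74 in CKD, and 2466 of the 3706 UMIs in AKI 2 lay in 1 cell.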
